A study of Homo sapiens with 8 samples.

Results

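The effect of diesel particulate on messenger RNA was estimated across both backgrounds of a 2-by-2 experiment, with fucoidan absent or present. All 8 of the 8 libraries of the series entered an additive model with 1 term for particulate and 1 for fucoidan, and the particulate term set the 4 libraries with particulate against the 4 without it. The cells, treated for 24 h, were ARPE-19, which is an established human cell line derived from the retinal pigment epithelium. The particulate group received 200 µg/mL of SRM 1650b, a reference material of diesel exhaust particles, and the combination group received the same particles together with 400 µg/mL of fucoidan, a sulfated polysaccharide from the brown seaweed Fucus vesiculosus. The control group received an equal volume of the saline in which fucoidan was dissolved, and the fucoidan group received 400 µg/mL of fucoidan alone. Each of the 4 groups had 2 libraries that are described as independent biological replicates. Because DMSO carried the particles and a group with DMSO alone is not among the samples, particles and solvent cannot be told apart in any value below.

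Diesel exhaust particles carry metals, quinones and polycyclic aromatic hydrocarbons on a carbon core. Electrophiles and oxidants release the transcription factor NRF2 from its inhibitor KEAP1, and NRF2 then drives genes for glutathione, thioredoxin and NADPH. Polycyclic aromatic hydrocarbons activate the aryl hydrocarbon receptor, which drives cytochrome P450 genes, and shortage of amino acids or other stress raises ATF4, which drives genes for amino acid supply. The retinal pigment epithelium nourishes the photoreceptors, recycles their retinoids and lays down part of the membrane on which it sits. Its actin cytoskeleton is governed in part by serum response factor (SRF), whose coactivators respond to the pool of free actin.

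Total counts ran from 12993565 to 17019284 per library. Levels are given as CPM (counts scaled to a common library size) after scaling the libraries to each other. Fold changes are log2 values of particulate over no particulate from edgeR's quasi-likelihood fit, with their standard error, and p-values are from the same test with Benjamini-Hochberg adjustment over all 15010 genes tested. "Rose" and "fell" are used for an adjusted p under 0.05. Principal component 1 held 62.6% of the variance and placed the 4 libraries with particulate at 32.7 to 53.4 and the 4 without it at -53.4 to -39.2. On component 2 (18.7%), the lowest score, -58.4, was that of combination replicate 1. Of the variance of log2 CPM summed over all genes, the particulate term took 61.4%, fucoidan 10.3%, their interaction 5.94% and the spread between replicates 22.4%. Genes that vary most weigh most in these shares. Each of the terms has 1 degree of freedom and the replicates have 4.

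The markers of the labelled cell type were only partly present. Of 15 pigment epithelium markers, 5 had at least 1 CPM in every library (MITF, OTX2, PMEL, KRT8 and KRT18) and 6 were under 1 CPM in all of them, RPE65 and TYR included. Their summed level was 1653 to 2240 CPM with particulate and 3361 to 3872 CPM without, nearly all of it from KRT8 and KRT18. All 6 endothelial and all 4 melanocyte markers stayed under 1 CPM in every library, as did 5 of 6 photoreceptor, 5 of 7 leukocyte and 3 of 5 Müller glia markers. Of 6 fibroblast markers 4 stayed under 1 CPM, and the sum of all 6 was 37.4 to 93.2 CPM with particulate and 276 to 490 CPM without, from PDGFRB and COL1A1. The part of cell composition in the results below was not tested, and in bulk RNA fewer cells of a type cannot be told apart from less RNA per cell.

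Most tested genes of the antioxidant, amino acid supply and NF-kB lists rose with particulate in the additive model. Most of those for matrix proteins, actin filaments, keratins and the pigment epithelium fell. Of the 15010 genes tested, 5734 passed (38.2%), with 2925 higher (19.5%) and 2809 lower (18.7%). With upper quartile scaling in place of TMM the split was 2248 higher and 3265 lower, and the median of all genes was -0.06 against 0.02 here. Without fucoidan replicate 1 the number higher was 1886. At least 2-fold changes that passed numbered 1954 (13%), 668 higher and 1286 lower, and 1647 genes (11%) passed a test against a 1.5-fold change. The 4 libraries with particulate lay outside the range of the 4 without it for 5257 genes (35%), above it for 2529 (16.8%) and below it for 2728 (18.2%). Lack of overlap was also a condition for choosing most genes named below, so for them it is not a separate result.

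A second model, with 1 mean per group, gave the particulate effect in each background and their interaction. Without fucoidan, in particulate against control, 3089 genes passed (20.6%; 9.11% higher and 11.5% lower). With fucoidan, in combination against fucoidan, 3110 passed (20.7%; 10.2% higher and 10.6% lower). These comparisons share no library, but the spread of each gene was estimated once from all 8 libraries, so their tests are not independent. In both comparisons 2009 genes passed, each in the same direction, which was 65.0% of the first list and 64.6% of the second. The first count was 906 to 2045 without either control, either fucoidan or particulate replicate 1, and 5000.0 and 5003 without combination replicate 1 or 2. The second was 743 to 1899 without either control or either fucoidan replicate, and 5339 without combination replicate 2. The interaction passed for 0 of 15010 genes (0%) in edgeR's test; 668 (4.45%) had an unadjusted p under 0.05, less than the 5% that no interaction would give, and DESeq2 called 17. Without combination replicate 2 the interaction was called for 865 genes and without combination replicate 1 for 2, so the absence of calls with all 8 libraries does not show that the backgrounds act alike. Across genes, the fold changes of the backgrounds had a Pearson correlation of 0.815, which describes 15010 genes that are not independent.

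**Figure D1:**
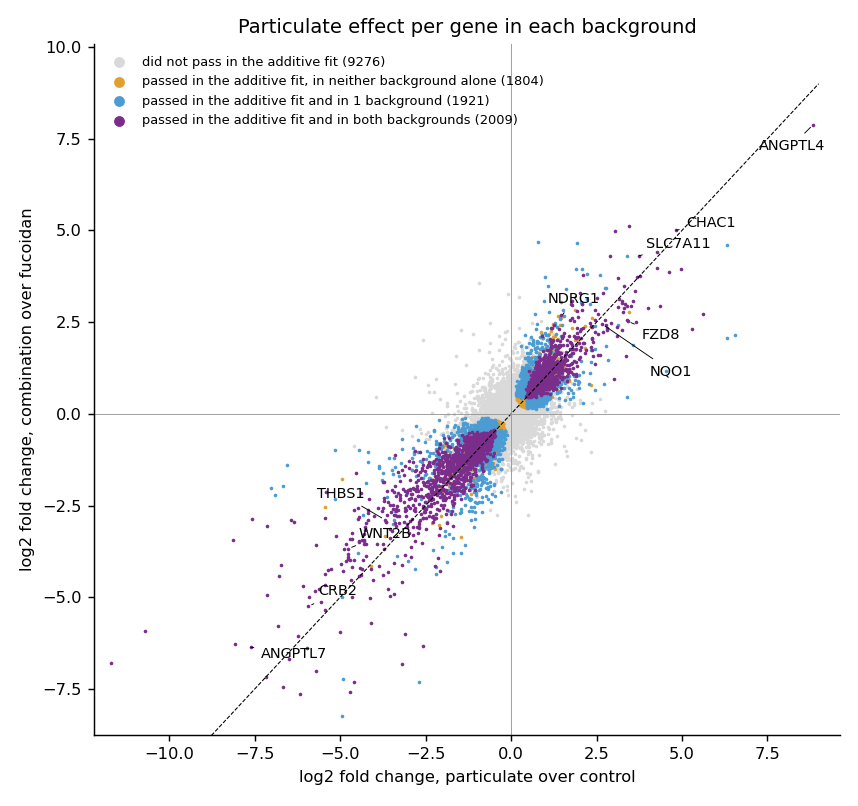
Log2 fold change of each of the 15010 tested genes for particulate over control (horizontal) and combination over fucoidan (vertical), coloured by whether the gene passed in the additive fit and in the separate comparisons; the dashed line marks equal values. Points lie along the line, ANGPTL4 at its upper end, and 1804 genes passed only when the backgrounds were joined.

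Pooling the backgrounds added 1804 genes that passed in neither alone, 1038 higher and 766 lower. Their median absolute log2 fold change was 0.49, against 0.68 for the 1921 that also passed in 1 background and 1.15 for the 2009 that passed in both. Smaller changes pass less readily in the separate comparisons, so this order follows largely from how the classes were set. Conversely, 123 genes passed without fucoidan and 137 with it but not in the additive model. RHBDF2, an inactive rhomboid protein that carries the sheddase ADAM17 to the cell surface, had 22.1 and 24.4 CPM with particulate alone and 29.6 and 21.9 CPM in the combination, against 16.7 and 13.04 CPM in control and 16.4 and 16.6 CPM with fucoidan. All 4 libraries with particulate were above the 4 without (log2 fold change 0.64 ± 0.14, adjusted p = 0.00441), while its adjusted p was 0.0509 without fucoidan and 0.0512 with it. GFM1, a mitochondrial translation elongation factor, had 32.3 to 41.9 CPM with particulate, against 23.2 to 29.1 CPM without (log2 fold change 0.50 ± 0.11, adjusted p = 0.00471). ZFAND2A, an arsenite-inducible protein that binds the proteasome, had 6.07 to 8.53 CPM with particulate, against 3.58 to 4.49 CPM without (log2 fold change 0.80 ± 0.17, adjusted p = 0.00492). RDH11, a retinol dehydrogenase, rose by a like amount in each background, with 0.54 ± 0.18 without fucoidan and 0.55 ± 0.18 with it, neither of which passed alone. Among the genes that fell in this way were CARMIL1, which regulates actin filament capping (-0.63 ± 0.13), GMPR2, a GMP reductase (-0.44 ± 0.09), and SPATS2L (-0.45 ± 0.10).

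Among the largest increases was that of ANGPTL4, which blocks lipoprotein lipase outside the cell, on chromosome 19 at 8363289 to 8374373 (GRCh38). It had 177 and 384 CPM with particulate alone and 509.6 and 55.2 CPM in the combination, against 0.708 and 0.511 CPM in control and 1.25 and 1.14 CPM with fucoidan. Its replicates differed over 9-fold in the combination, yet the lowest library with particulate was far above the highest without (log2 fold change 8.30 ± 0.77, adjusted p = 3.57e-05). CHAC1, an enzyme that degrades glutathione, had 11.3 and 23.5 CPM with particulate alone and 36.8 and 13.7 CPM in the combination, against 0.496 and 0.703 CPM in control and 0.702 and 0.838 CPM with fucoidan, with no overlap (log2 fold change 4.92 ± 0.41, adjusted p = 2.03e-05). CSF2, a cytokine that drives growth of granulocytes and macrophages, was steadier between replicates and rose by 4.23 ± 0.22, with 7.997 to 12.1 CPM with particulate, against 0.447 to 0.658 CPM without. SPRY4, which restrains growth factor signalling, had 16.5 and 25.4 CPM with particulate alone and 44.8 and 16.2 CPM in the combination, against 2.97 and 2.11 CPM in control and 0.936 and 0.958 CPM with fucoidan. That was a rise of 3.04 ± 0.47 without fucoidan and 4.99 ± 0.54 with it, and the interaction had an adjusted p of 0.897. The lipid transporter gene MFSD2A rose by 3.41 ± 0.30, and IL6R, the interleukin 6 receptor, by 4.35 ± 0.48.

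Among the largest decreases were those of epithelial and secreted-factor genes. ELF3, an epithelial ETS factor on chromosome 1 at 202007945 to 202017188, had 7 reads over the 4 libraries with particulate (0, 0, 4 and 3) and 1502 over the 4 without (log2 fold change -7.82 ± 0.40, adjusted p = 1.78e-06). Its overlapping antisense gene ELF3-AS1 had 8 and 838 reads. EDN2, a vasoconstrictor endothelin, had 9 reads with particulate and 629 without (log2 fold change -6.21 ± 0.36, adjusted p = 2.66e-06). ANGPTL7, an angiopoietin-like secreted protein, had 0.231 and 0.122 CPM with particulate alone and 0.800 and 1.00 CPM in the combination, against 37.9 and 34.95 CPM in control and 80.4 and 70.1 CPM with fucoidan. Both libraries with fucoidan were above both controls, and all libraries with particulate were far below (log2 fold change -6.73 ± 0.23, adjusted p = 2.09e-07). DIO2, which activates thyroid hormone, fell by 5.28 ± 0.45 on the log2 scale, with 14.6 to 73.3 CPM with particulate, against 1177 to 1308 CPM without. PTGIS, the prostacyclin synthase, had 9.47 to 29.4 CPM with particulate, against 363 to 447 CPM without (log2 fold change -4.79 ± 0.30, adjusted p = 3.92e-06). KRT13, a keratin of stratified epithelia, had 0.115 to 0.733 CPM with particulate, against 28.5 to 36.5 CPM without (log2 fold change -6.15 ± 0.29, adjusted p = 1.32e-06).

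On the TPM scale of the authors' table, which allows for transcript length, the increases with the largest absolute size were those of the ferritin chains that store iron. FTL averaged 18789 TPM with particulate and 5173 TPM without, and FTH1 16751 TPM with particulate and 6134 TPM without. In CPM every library with particulate exceeded every other one for FTL (3799.6 to 5267 CPM with particulate, against 1197 to 1250.5 CPM without; log2 fold change 1.88 ± 0.12, adjusted p = 3.41e-06) and FTH1 (1.47 ± 0.15). MT2A, a metal-binding metallothionein, averaged 7148 TPM with particulate and 3400.0 TPM without (1.04 ± 0.15). The decreases with the largest absolute size in TPM were those of ACTG1, the cytoplasmic gamma actin (3739 TPM with particulate and 11950.3 TPM without), ACTB, beta actin (3553 TPM with particulate and 7541 TPM without), and KRT7, a keratin (701 TPM with particulate and 3077 TPM without). TMSB4X, which binds free actin monomers, averaged 1934 TPM with particulate and 4282 TPM without and SPARC, a collagen-binding protein, 1122 TPM with particulate and 3426 TPM without. Ferritin, actin and metallothionein genes have near-identical copies, so their counts are uncertain.

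Gene lists were read against the share of all tested genes that rose (19.5%) or fell (18.7%). No list was tested as a set, and some lists share members. The lists and their members were chosen with earlier results of these data known. Shares above those of all genes therefore describe the lists and are not independent evidence. Shifts of over 1.5 times when a library was left out are given with each list, except that counts of 1 or 2 could shift by 1; smaller shifts are not given.

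**Figure D2:**
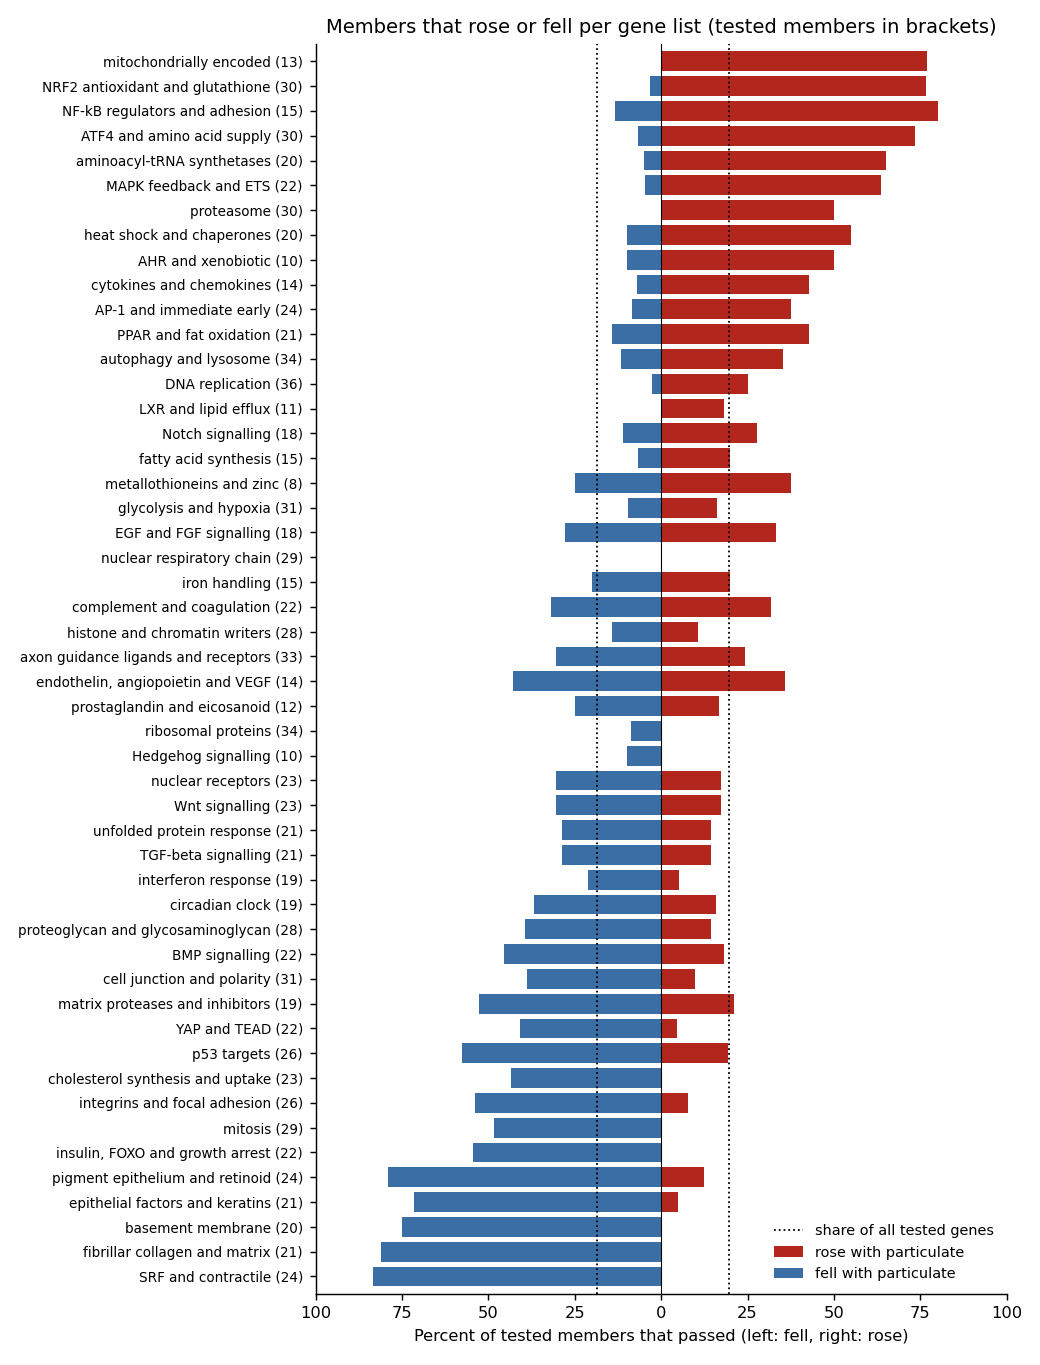
Percent of the tested members of each of the 50 gene lists that rose (right, red) or fell (left, blue) with particulate in the additive fit; dotted lines mark 19.5% and 18.7%, the shares of all tested genes. Antioxidant, NF-kB and ATF4 lists lie far to the right, and the SRF, matrix, basement membrane, keratin and pigment epithelium lists far to the left. The lists were chosen with earlier results of these data known.

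NRF2 targets made up one of the lists with most increases: 23 of 30 tested members rose and 1 fell (median log2 fold change 1.07). The one that fell was GPX4, a glutathione peroxidase that protects membrane lipids (-0.64 ± 0.12), and 3 fell without combination replicate 1. In the separate comparisons 19 rose and 1 fell against control, and 16 rose and 1 fell in the combination against fucoidan. SLC7A11, which imports cystine for making glutathione, had 105 and 156 CPM with particulate alone and 227 and 195 CPM in the combination, against 9.70 and 9.78 CPM in control and 10.4 and 10.9 CPM with fucoidan. The lowest library with particulate was more than 9 times the highest without (log2 fold change 4.03 ± 0.18, adjusted p = 9.45e-07). GCLM, the modifier subunit of the enzyme that joins glutamate to cysteine, had 66.8 and 86.6 CPM with particulate alone and 104 and 81.5 CPM in the combination, against 19.8 and 20.4 CPM in control and 19.5 and 20.6 CPM with fucoidan, with no overlap (log2 fold change 2.07 ± 0.13, adjusted p = 4.59e-06). NQO1, a quinone reductase on chromosome 16 at 69706996 to 69726951, had 1065 and 941 CPM with particulate alone and 1008 and 824 CPM in the combination, against 146 and 171 CPM in control and 156 and 179.6 CPM with fucoidan. Its values were close within each group (log2 fold change 2.56 ± 0.12, adjusted p = 1.33e-06). TXNRD1, the thioredoxin reductase, rose by 1.71 ± 0.13 and OSGIN1, an oxidative stress-induced growth inhibitor, by 3.40 ± 0.31. HMOX1, which breaks down heme, had 283 and 282 CPM with particulate alone and 547 and 149 CPM in the combination, against 28.9 and 25.4 CPM in control and 59.2 and 58.7 CPM with fucoidan. The fucoidan libraries were above the controls and combination replicate 1 was more than 3 times its replicate, but the groups did not overlap (log2 fold change 2.96 ± 0.35, adjusted p = 0.000157). NFE2L2, the gene for NRF2 itself, did not pass (log2 fold change 0.20 ± 0.14, adjusted p = 0.297), and its value was 0.04 without combination replicate 1. KEAP1 did not pass (log2 fold change -0.22 ± 0.10, adjusted p = 0.105), but it did without particulate replicate 1 (-0.26, adjusted p = 0.0452) and with upper quartile scaling or limma-voom.

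The antioxidant response element, to which NRF2 binds, was searched as TGACNNNGC on both strands from 250 bases before to 50 after the start of each gene in RefSeq promoters of GRCh38.p14. It was found in 4 of the 21 NRF2 list members with a promoter in the table (19%), against 15.3% of the 10884 tested genes with one. Windows of the GCLM and TXNRD1 promoters are given because these genes rose and hold the element, which is in capitals; in GCLM it is read from the other strand.
GCLM, chr1:93909431-93909509, minus strand: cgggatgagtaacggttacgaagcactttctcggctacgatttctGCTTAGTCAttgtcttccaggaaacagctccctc
TXNRD1, chr12:104215635-104215733, plus strand: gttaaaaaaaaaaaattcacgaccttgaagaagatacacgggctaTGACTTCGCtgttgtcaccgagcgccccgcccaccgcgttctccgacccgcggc

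Fewer genes bear on the aryl hydrocarbon receptor: 5 of 10 tested members rose and 1 fell (median log2 fold change 1.03). TIPARP, a mono-ADP-ribosyltransferase that restrains the receptor, had 124 and 105 CPM with particulate alone and 186 and 199 CPM in the combination, against 53.4 and 49.5 CPM in control and 61.5 and 55.8 CPM with fucoidan, all above the others (log2 fold change 1.43 ± 0.14, adjusted p = 3.96e-05). EPHX1, an epoxide hydrolase, rose by 0.85 ± 0.10. CYP1A1, the cytochrome P450 most used as a readout of the receptor, had 10.2 and 6.599 CPM with particulate alone and 2.13 and 17.8 CPM in the combination, against 2.27 and 2.30 CPM in control and 2.96 and 2.03 CPM with fucoidan. Combination replicate 1 lay within the range of the libraries without particulate (log2 fold change 1.95 ± 0.51, adjusted p = 0.0133), the value was 1.16 without combination replicate 2, and on log2(TPM + 1) it was 1.33 with an adjusted p of 0.0585. CYP1B1, a second P450 target, had 19.1 and 11.9 CPM with particulate alone and 6.26 and 55.0 CPM in the combination, against 7.93 and 6.26 CPM in control and 13.1 and 11.97 CPM with fucoidan and did not pass (log2 fold change 1.22 ± 0.49, adjusted p = 0.0746); its combination libraries lay on either side of the fucoidan ones, and it passed without combination replicate 1 (1.60, adjusted p = 0.000128). The repressor gene AHRR had too few reads to be tested (9 in all).

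Genes of the ATF4 response rose together: 22 of 30 tested members rose and 2 fell (median log2 fold change 1.14), and in the separate comparisons 13 rose and 2 fell against control, and 21 rose and 2 fell in the combination against fucoidan. ATF4 itself had 748 and 679 CPM with particulate alone and 1267 and 693 CPM in the combination, against 473 and 454 CPM in control and 406 and 444 CPM with fucoidan. Combination replicate 1 was the highest by far, and the other 3 libraries with particulate were also above all without (log2 fold change 0.91 ± 0.19, adjusted p = 0.00384). PSAT1, which makes phosphoserine in the serine pathway, had 184 and 186 CPM with particulate alone and 395 and 227 CPM in the combination, against 41.6 and 47.0 CPM in control and 34.8 and 43.2 CPM with fucoidan (log2 fold change 2.53 ± 0.23, adjusted p = 3.26e-05). TRIB3, a pseudokinase induced by stress, had 81.1 and 67.0 CPM with particulate alone and 279 and 65.3 CPM in the combination, against 17.6 and 16.7 CPM in control and 11.3 and 13.5 CPM with fucoidan; 1 library stood at 279 CPM and the 3 others with particulate at 65.3 to 81.1 CPM (log2 fold change 2.94 ± 0.47, adjusted p = 0.000898). PCK2, the mitochondrial phosphoenolpyruvate carboxykinase, rose by 1.29 ± 0.16 and CEBPG, a partner of ATF4, by 1.59 ± 0.23. DDIT3, the stress factor also called CHOP, rose by 1.29 ± 0.22 (adjusted p = 0.00140). ALDH1L2, a mitochondrial folate enzyme, and SLC38A2, an amino acid transporter, were the members that fell, on few reads. ALDH1L2 had 7 reads with particulate and 56 without, and SLC38A2 had 18 and 71. Their changes were -3.11 ± 0.49 and -2.12 ± 0.35, and -0.39 and -0.53 on log2(TPM + 1).

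The composite element read by ATF4 with its partners was searched as TGATGNAA. It stood in 5 of the 25 list members with a promoter (20%), against 1.62% of tested genes with one and 1.88% of those that rose. One of the 5 was ASNS, the asparagine synthetase, which rose but was low, at 0.404 to 7.13 CPM with particulate, against 0.0639 to 0.234 CPM without. Its reads numbered 158 with particulate, 107 of them in combination replicate 1, and 8 without. A gene that overlaps it on the same strand had 62 reads, so the level of ASNS is uncertain. The list was put together from genes linked to ATF4, so its larger share of the element is not evidence from these data. The CHAC1 window is shown because CHAC1 had the largest fold change of the list; the element, in capitals, is read from the other strand.
CHAC1, chr15:40953221-40953314, plus strand: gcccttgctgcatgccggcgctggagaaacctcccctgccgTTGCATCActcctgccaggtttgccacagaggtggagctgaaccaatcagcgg

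Aminoacyl-tRNA synthetase genes, which charge tRNAs with their amino acids, followed: 13 of 20 tested members rose and 1 fell (median log2 fold change 0.63). MARS1, for methionine, had 243 and 228 CPM with particulate alone and 296 and 229 CPM in the combination, against 104 and 115 CPM in control and 84.7 and 91.9 CPM with fucoidan, with no overlap (log2 fold change 1.34 ± 0.13, adjusted p = 5.34e-05). YARS1, for tyrosine, rose by 1.22 ± 0.16, IARS1, for isoleucine, by 0.81 ± 0.11 and NARS1, for asparagine, by 0.88 ± 0.13. The one that fell, QARS1, for glutamine, was at -0.49 ± 0.09.

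Cytosolic chaperones and the proteasome also had more increases than the background, whereas chaperones of the endoplasmic reticulum did not. In the heat shock list 11 of 20 tested members rose and 2 fell (median log2 fold change 0.46). HSP90AA1, the inducible HSP90, had 2381 to 2977 CPM with particulate, against 1320.5 to 1616 CPM without (log2 fold change 0.90 ± 0.10, adjusted p = 0.000123), and its cochaperone FKBP4 rose by 0.92 ± 0.09. The members that fell were the small heat shock proteins CRYAB, with 727 to 893 CPM with particulate, against 1833 to 2178 CPM without (log2 fold change -1.32 ± 0.10, adjusted p = 1.28e-05), and HSPB1 (-1.12 ± 0.12). Of the proteasome genes 15 of 30 tested members rose and 0 fell (median log2 fold change 0.32); without control replicate 1 the number that rose was 9. PSMD12, a subunit of the regulatory lid, rose by 0.90 ± 0.09, and the lid deubiquitinase gene PSMD14 rose by 0.72 ± 0.13. In the unfolded protein response list 3 of 21 tested members rose and 6 fell (median log2 fold change -0.04), or 6 rose without particulate replicate 1. CALR, the calcium-binding chaperone calreticulin, fell by 0.75 ± 0.11 on the log2 scale, while ERN1, the sensor IRE1, rose by 1.48 ± 0.27.

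Autophagy and lysosome genes were mixed: 12 of 34 tested members rose and 4 fell (median log2 fold change 0.26); the number that fell was 2 without control replicate 1 or 2 or fucoidan replicate 1, and 9 without combination replicate 1. SQSTM1, the autophagy receptor p62, had 2616 and 2329.7 CPM with particulate alone and 2534 and 1943 CPM in the combination, against 784 and 751 CPM in control and 757 and 740.5 CPM with fucoidan, which put all libraries with particulate above all without (log2 fold change 1.63 ± 0.11, adjusted p = 5.93e-06). The lysosomal enzyme genes CTSL, a cathepsin, and GLA, a galactosidase, rose by 1.26 ± 0.12 and 1.34 ± 0.13. For metallothioneins and zinc 3 of 8 tested members rose and 2 fell (median log2 fold change 0.43), or 5 rose without particulate replicate 1. MT1X rose by 1.26 ± 0.19. For iron handling 3 of 15 tested members rose and 3 fell (median log2 fold change 0.06), shares near the background. Besides ferritins and HMOX1, which rose, the ferroxidase gene HEPH (-1.25 ± 0.17) and the iron-linked ligand gene BMP6 (-1.78 ± 0.17) were among those that fell.

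**Figure D3:**
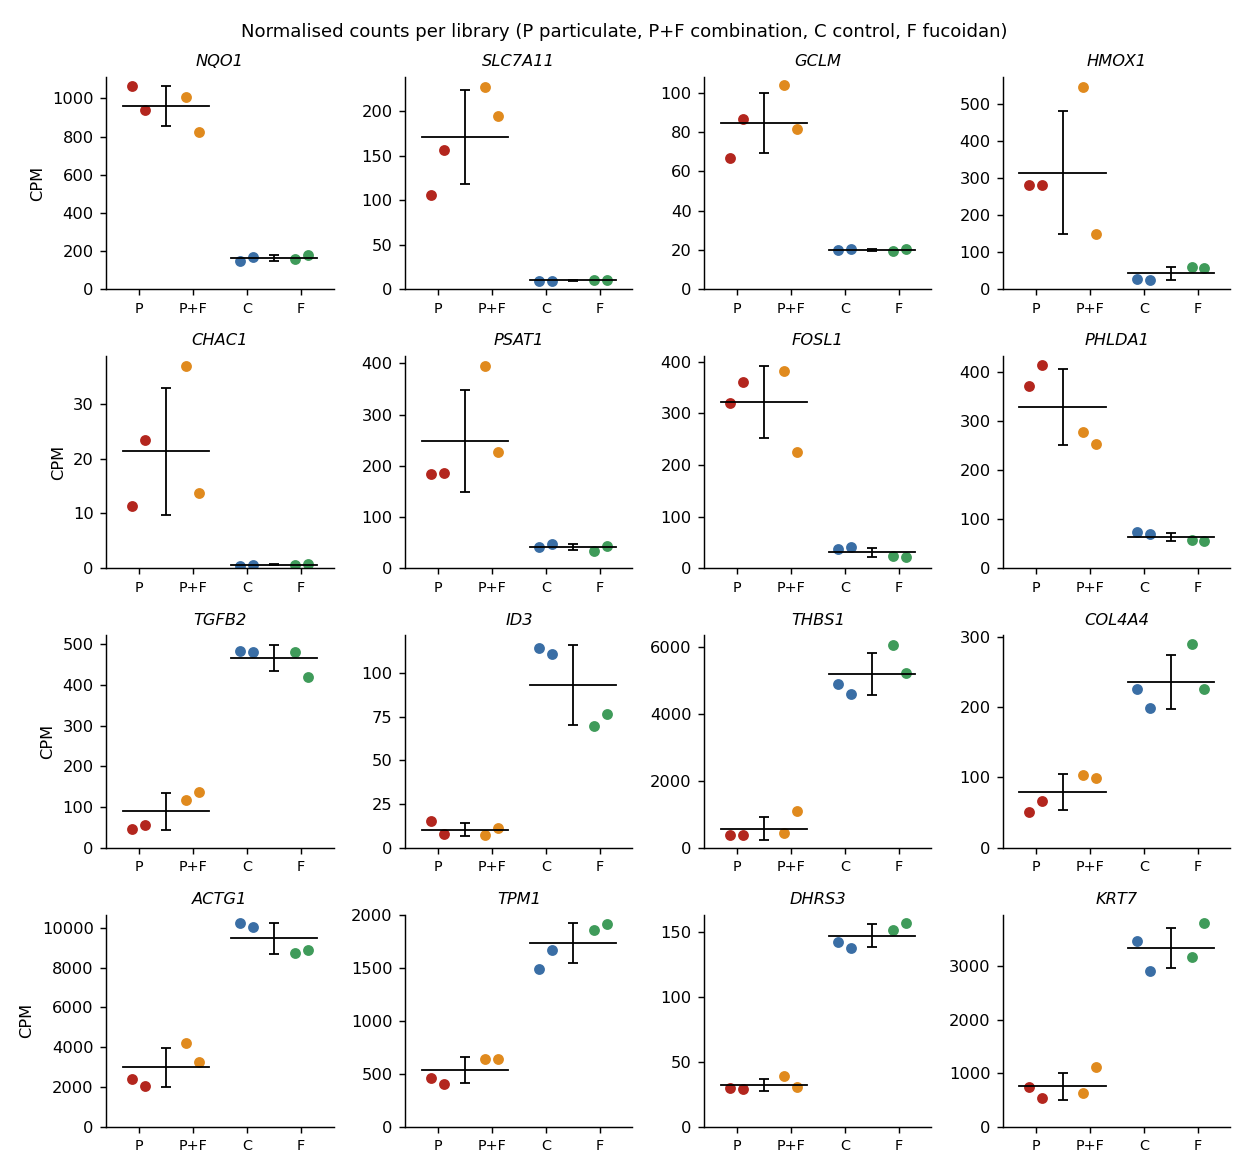
Normalised counts (CPM) of 16 genes in each of the 8 libraries, with particulate (P), in the combination (P+F), in control (C) and with fucoidan (F); horizontal bars and error bars are the mean and SD of the 4 libraries with and the 4 without particulate. For every gene shown the libraries with and without particulate do not overlap, for example 824 to 1065 CPM against 146 to 179.6 CPM for NQO1. That was a condition for choosing most named genes, and it holds for 35% of all tested genes.

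Most NF-kB pathway genes tested rose: 12 of 15 tested members rose and 2 fell (median log2 fold change 1.43). In the separate comparisons 5 rose and 1 fell against control, and 11 rose and 2 fell in the combination against fucoidan. IRAK2, a kinase downstream of interleukin 1 and Toll-like receptors, had 14.9 and 21.3 CPM with particulate alone and 49.7 and 16.8 CPM in the combination, against 5.31 and 5.56 CPM in control and 5.07 and 6.16 CPM with fucoidan (log2 fold change 2.15 ± 0.33, adjusted p = 0.000731). TRAF1, a signalling adaptor, rose by 1.82 ± 0.28. ICAM1, a leukocyte adhesion molecule, had 57.3 and 77.2 CPM with particulate alone and 171 and 53.6 CPM in the combination, against 37.2 and 30.4 CPM in control and 31.0 and 28.6 CPM with fucoidan; it rose (log2 fold change 1.45 ± 0.33, adjusted p = 0.00637), and by 0.94 without combination replicate 1, the highest library. BCL3, an atypical IkB protein, fell by 0.93 ± 0.15 on the log2 scale. PTX3, a pentraxin that binds microbes, rose by 3.76 ± 0.31, but it overlaps a gene on the opposite strand that had more reads.

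Among cytokine and chemokine genes 6 of 14 tested members rose and 1 fell (median log2 fold change 0.80), or 3 fell without combination replicate 1. CSF2, described above, had the largest change. CXCL8, a neutrophil attractant, had 80.7 and 159.7 CPM with particulate alone and 336 and 105 CPM in the combination, against 13.7 and 18.3 CPM in control and 9.91 and 12.4 CPM with fucoidan. The lowest library with particulate was over 4 times the highest without (log2 fold change 3.59 ± 0.44, adjusted p = 0.000178). CXCL3, another attractant, rose by 3.70 ± 0.26 and IL11, a fibrosis-linked cytokine of the interleukin 6 family, by 2.63 ± 0.38. CXCL1 did not pass (log2 fold change 0.24 ± 0.30, adjusted p = 0.556). IL1B was low but passed, with 189 reads over the libraries with particulate and 31 over those without (log2 fold change 2.38 ± 0.41, adjusted p = 0.00134). IL6 did not pass (log2 fold change -0.20 ± 0.28, adjusted p = 0.606), with 0.933 to 2.26 CPM with particulate, against 1.33 to 2.12 CPM without, and its sign changed between alternative fits. CCL2, a monocyte attractant, had 46.9 and 31.1 CPM with particulate alone and 10.6 and 84.9 CPM in the combination, against 107 and 90.4 CPM in control and 88.1 and 79.0 CPM with fucoidan; combination replicate 2 lay within the range without particulate and the gene did not pass (log2 fold change -1.07 ± 0.46, adjusted p = 0.0900), but it did without combination replicate 1 (-0.76, adjusted p = 0.0250) or 2 (-1.91, adjusted p = 0.00138).

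Other inflammation lists moved less in 1 direction. In the prostaglandin list 2 of 12 tested members rose and 3 fell (median log2 fold change 0.08), with PTGES, a prostaglandin E synthase, at -0.98 ± 0.12. In the interferon list 1 of 19 tested members rose and 4 fell (median log2 fold change -0.19), or 3 rose without combination replicate 1. IRF1, a transcription factor of that response, had 15.3 to 28.2 CPM with particulate, against 8.35 to 9.46 CPM without (log2 fold change 1.36 ± 0.17, adjusted p = 0.000241), while STAT2, another one, fell by 0.92 ± 0.16 on the log2 scale. In the complement and coagulation list 7 of 22 tested members rose and 7 fell (median log2 fold change 0.00). PLAUR, the urokinase receptor, had 50.6 to 113 CPM with particulate, against 17.5 to 25.8 CPM without (log2 fold change 1.98 ± 0.22, adjusted p = 0.000102) and SERPINE2, a protease inhibitor, rose by 1.11 ± 0.12. F2R, the thrombin receptor, fell by 1.16 ± 0.12 on the log2 scale.

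Growth factor feedback genes rose and AP-1 subunits moved in opposite directions. In the MAPK feedback list 14 of 22 tested members rose and 1 fell (median log2 fold change 1.15), or 5 fell without combination replicate 1. PHLDA1 had 372 and 415 CPM with particulate alone and 278 and 253 CPM in the combination, against 73.5 and 69.8 CPM in control and 57.5 and 55.4 CPM with fucoidan, tight within groups (log2 fold change 2.35 ± 0.10, adjusted p = 9.45e-07). DUSP6, the ERK phosphatase, rose by 1.92 ± 0.16, SPRED3, a RAS inhibitor, by 1.59 ± 0.12 and ETV4, an ETS factor, by 2.80 ± 0.17. In the AP-1 and immediate early list 9 of 24 tested members rose and 2 fell (median log2 fold change 0.16), or 5 fell without combination replicate 1. FOSL1 had 320.4 and 361 CPM with particulate alone and 382 and 225 CPM in the combination, against 36.8 and 41.1 CPM in control and 23.6 and 22.6 CPM with fucoidan (log2 fold change 3.42 ± 0.20, adjusted p = 2.66e-06), and JUN rose by 1.35 ± 0.17. Their relatives fell: FOS had 34.7 and 39.1 CPM with particulate alone and 54.6 and 35.6 CPM in the combination, against 292 and 263 CPM in control and 378 and 281 CPM with fucoidan (log2 fold change -2.89 ± 0.16, adjusted p = 2.40e-06), and JUNB fell by 2.01 ± 0.12 on the log2 scale. In the EGF and FGF list 6 of 18 tested members rose and 5 fell (median log2 fold change 0.05). FGFR1, a growth factor receptor, rose by 0.88 ± 0.16, while FGF1 fell by 2.15 ± 0.15 on the log2 scale and NRG1, a ligand of ERBB receptors, by 1.42 ± 0.13.

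Matrix genes fell almost throughout. Of the fibrillar collagen and matrix list 0 of 21 tested members rose and 17 fell (median log2 fold change -1.38), and in the separate comparisons 0 rose and 15 fell against control, and 0 rose and 13 fell in the combination against fucoidan. THBS1, thrombospondin, had 368 and 365 CPM with particulate alone and 439 and 1081 CPM in the combination, against 4890.3 and 4578 CPM in control and 6039 and 5205 CPM with fucoidan. Combination replicate 2 was the highest of the libraries with particulate and still far below the lowest without (log2 fold change -3.29 ± 0.28, adjusted p = 2.11e-05). COL1A1, a chain of type I collagen, had 14.1 and 14.2 CPM with particulate alone and 46.1 and 49.0 CPM in the combination, against 76.7 and 59.0 CPM in control and 201 and 168 CPM with fucoidan; it was higher with fucoidan than without in both settings, and each comparison fell by a like amount (-2.26 ± 0.18 and -1.96 ± 0.18). COL5A2 fell by 1.72 ± 0.13 on the log2 scale, FN1, fibronectin, by 1.38 ± 0.16 and SPARC by 1.61 ± 0.11. In the basement membrane list 0 of 20 tested members rose and 15 fell (median log2 fold change -0.70). COL4A4, a type IV collagen chain, had 50.3 and 66.5 CPM with particulate alone and 103 and 99.7 CPM in the combination, against 227 and 199 CPM in control and 290.3 and 226 CPM with fucoidan (log2 fold change -1.61 ± 0.15, adjusted p = 3.81e-05). LAMA4, a laminin chain, fell by 1.10 ± 0.11 on the log2 scale, HSPG2, perlecan, by 1.85 ± 0.17 and COL4A1 by 1.83 ± 0.16.

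Enzymes that cut the matrix and their inhibitors mostly fell too: 4 of 19 tested members rose and 10 fell (median log2 fold change -0.54). TIMP3, an inhibitor of metalloproteinases that is abundant in the membrane under the pigment epithelium, had 323 and 327 CPM with particulate alone and 395 and 301 CPM in the combination, against 1543 and 1493 CPM in control and 1351 and 1241 CPM with fucoidan (log2 fold change -2.06 ± 0.12, adjusted p = 2.98e-06). ADAMTS5, an aggrecanase, had 12.5 and 14.1 CPM with particulate alone and 22.0 and 30.6 CPM in the combination, against 173 and 159 CPM in control and 126 and 102 CPM with fucoidan, with larger falls without fucoidan (-3.64 ± 0.21) than with it (-2.11 ± 0.20), a difference that did not pass (adjusted p = 0.497). MMP24, a membrane-bound metalloproteinase, fell by 1.78 ± 0.16 on the log2 scale. The stromelysin gene MMP3 (2.31 ± 0.55) was among the 4 that rose. In the proteoglycan list 4 of 28 tested members rose and 11 fell (median log2 fold change -0.16); SULF1, which removes sulfate from heparan sulfate, fell by 2.16 ± 0.14 on the log2 scale, NDST1, which adds it, by 1.49 ± 0.11 and GPC4, a glypican, by 1.56 ± 0.12.

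Integrin and focal adhesion genes fell more often than they rose: 2 of 26 tested members rose and 14 fell (median log2 fold change -0.41). ITGB4, the integrin of hemidesmosomes, had 18.6 to 33.3 CPM with particulate, against 56.8 to 121 CPM without (log2 fold change -1.84 ± 0.13, adjusted p = 6.87e-06), and ACTN4, an actin crosslinker, fell by 0.92 ± 0.12 on the log2 scale. ITGA6, the partner of ITGB4, rose by 0.71 ± 0.11, and ITGA2, a collagen receptor subunit, had 22.4 to 42.0 CPM with particulate, against 4.66 to 5.69 CPM without (log2 fold change 2.60 ± 0.23, adjusted p = 2.60e-05).

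Most SRF and contractile genes fell and none passed as higher: 0 of 24 tested members rose and 20 fell (median log2 fold change -0.89). In the separate comparisons 0 rose and 19 fell against control, and 0 rose and 12 fell in the combination against fucoidan. ACTG1 had 2404 and 2055 CPM with particulate alone and 4206 and 3263 CPM in the combination, against 10242 and 10031 CPM in control and 8737 and 8890.1 CPM with fucoidan. The fall was -2.18 ± 0.17 without fucoidan and -1.24 ± 0.16 with it, both of which passed, and the difference did not (interaction adjusted p = 0.824). TPM1, a tropomyosin, had 462 and 405 CPM with particulate alone and 642 and 641 CPM in the combination, against 1497 and 1677 CPM in control and 1866 and 1918 CPM with fucoidan (log2 fold change -1.72 ± 0.11, adjusted p = 3.92e-06). LMOD1, a nucleator of actin filaments in smooth muscle, fell most, with 0.519 to 1.34 CPM with particulate, against 19.4 to 26.4 CPM without (log2 fold change -4.49 ± 0.24, adjusted p = 1.84e-06). CNN2, a calponin, fell by 1.697 ± 0.11 on the log2 scale, MYL9, a myosin light chain, by 1.56 ± 0.11, ACTA2, smooth muscle actin, by 1.86 ± 0.14 and TAGLN, transgelin, by 1.09 ± 0.11. SRF itself was at -0.49 ± 0.11 (adjusted p = 0.00568).

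The CArG box, the element bound by SRF, was found in 6 of the 20 members with a promoter (30%: FHL2, MYLK, SRF, ACTG1, CNN2 and TPM4), and FHL2 no longer passed when either control, either fucoidan or particulate replicate 2 was left out. It stood in 1.04% of tested genes with a promoter and in 1.61% of those that fell. The list was put together from genes linked to SRF, so its larger share of the element is not evidence from these data. No member of the list rose, so the windows of 4 members that fell are given, with the element in capitals.
ACTG1, chr17:81512839-81512938, minus strand: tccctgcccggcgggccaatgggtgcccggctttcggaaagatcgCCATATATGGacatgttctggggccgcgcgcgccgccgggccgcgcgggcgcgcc
CNN2, chr19:1026474-1026573, plus strand: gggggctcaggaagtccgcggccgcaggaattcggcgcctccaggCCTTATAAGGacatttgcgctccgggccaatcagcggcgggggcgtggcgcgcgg
MYLK, chr3:123620588-123620687, minus strand: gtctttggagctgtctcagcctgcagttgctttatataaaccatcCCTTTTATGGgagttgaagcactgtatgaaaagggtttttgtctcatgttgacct
TPM4, chr19:16067320-16067419, plus strand: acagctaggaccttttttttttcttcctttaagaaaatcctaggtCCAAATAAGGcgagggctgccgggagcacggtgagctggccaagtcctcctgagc
Of these, MYLK, the myosin light chain kinase, fell by 1.66 ± 0.20 on the log2 scale and TPM4, a further tropomyosin, by 0.71 ± 0.13.

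Targets of YAP and TEAD, which also read cell tension, fell more often than they rose: 1 of 22 tested members rose and 9 fell (median log2 fold change -0.22), or 5 rose without particulate replicate 1. CCN2, a matricellular protein, had 319.6 and 195 CPM with particulate alone and 390.3 and 770.5 CPM in the combination, against 1571 and 1547 CPM in control and 1703 and 1636 CPM with fucoidan (log2 fold change -2.06 ± 0.28, adjusted p = 0.000352), CCN1 fell by 1.29 ± 0.24 on the log2 scale and CRIM1 by 1.59 ± 0.21. Among TGF-beta genes 3 of 21 tested members rose and 6 fell (median log2 fold change -0.04), or 1 rose without control replicate 2 or without either fucoidan replicate. The ligand gene TGFB2 had 45.03 and 56.3 CPM with particulate alone and 117 and 138 CPM in the combination, against 485 and 482 CPM in control and 483 and 419 CPM with fucoidan. The combination libraries were above those with particulate alone but far below the rest (log2 fold change -2.53 ± 0.27, adjusted p = 7.37e-05). TGFBI, a secreted target of the pathway, fell by 0.85 ± 0.10 on the log2 scale, whereas TGFBR2, a receptor, rose by 0.76 ± 0.11.

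For BMP signalling 4 of 22 tested members rose and 10 fell (median log2 fold change -0.37). All 4 inhibitor-of-differentiation genes, which are direct targets of the pathway, fell. ID3 had 15.1 and 8.004 CPM with particulate alone and 7.06 and 11.4 CPM in the combination, against 115 and 111 CPM in control and 70.0 and 76.7 CPM with fucoidan, ID2 fell by 2.65 ± 0.23 on the log2 scale and ID1 by 1.64 ± 0.24. For ID3 the change was -3.14 ± 0.21 with an adjusted p of 5.71e-06. The feedback inhibitor gene SMAD6 fell by 1.58 ± 0.13 on the log2 scale.

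Most genes of the pigment epithelium that could be tested fell: 3 of 24 tested members rose and 19 fell (median log2 fold change -1.05). In the separate comparisons 1 rose and 17 fell against control, and 1 rose and 17 fell in the combination against fucoidan. DHRS3, which reduces retinal to retinol, had 29.9 and 29.1 CPM with particulate alone and 39.1 and 30.8 CPM in the combination, against 142 and 137 CPM in control and 151 and 157 CPM with fucoidan (log2 fold change -2.19 ± 0.11, adjusted p = 1.64e-06). RDH10, which oxidises retinol, had 35.7 and 45.8 CPM with particulate alone and 49.1 and 44.7 CPM in the combination, against 275 and 269.6 CPM in control and 199 and 188 CPM with fucoidan (log2 fold change -2.39 ± 0.16, adjusted p = 5.26e-06). MITF, the transcription factor of pigment cells, had 16.8 and 22.9 CPM with particulate alone and 24.3 and 28.2 CPM in the combination, against 72.2 and 70.2 CPM in control and 76.9 and 68.7 CPM with fucoidan, with no overlap (log2 fold change -1.66 ± 0.14, adjusted p = 1.88e-05). Among the 3 that rose were RDH11 and BEST1, a channel of the pigment epithelium, which had 2.08 to 3.93 CPM with particulate, against 0.319 to 1.33 CPM without (log2 fold change 1.93 ± 0.31, adjusted p = 0.00101). The value of BEST1 is uncertain. BEST1 had 250 reads in all, and FTH1, which overlaps it on the opposite strand and also rose, had 813930. The part of FTH1 reads in the BEST1 counts was not tested. RPE65, TYR and 11 other members had too few reads to be tested, so the list covers part of the cell's program only.

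Epithelial factors and keratins fell as well: 1 of 21 tested members rose and 15 fell (median log2 fold change -0.97). KRT7 had 734 and 545 CPM with particulate alone and 629.9 and 1118 CPM in the combination, against 3458 and 2915 CPM in control and 3174 and 3794 CPM with fucoidan (log2 fold change -2.16 ± 0.19, adjusted p = 2.76e-05), and KRT81 fell by 3.06 ± 0.20 on the log2 scale. In the junction and polarity list 3 of 31 tested members rose and 12 fell (median log2 fold change -0.27), or 1 rose without fucoidan replicate 1. CRB2, a determinant of the apical membrane, had 0.519 and 0.733 CPM with particulate alone and 1.13 and 1.56 CPM in the combination, against 44.5 and 32.6 CPM in control and 51.6 and 52.4 CPM with fucoidan (log2 fold change -5.53 ± 0.21, adjusted p = 3.74e-07). JUP, plakoglobin, fell by 1.56 ± 0.11 on the log2 scale, F11R, a tight junction receptor, by 0.93 ± 0.11 and CTNND1, p120 catenin, by 0.91 ± 0.11.

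Developmental pathways showed changes of single genes in both directions. In the Wnt list 4 of 23 tested members rose and 7 fell (median log2 fold change -0.11), or 2 rose without control replicate 2. WNT2B, a ligand made by the ciliary margin and pigment epithelium in vertebrate embryos, had 3.29 and 2.99 CPM with particulate alone and 7.597 and 5.63 CPM in the combination, against 90.0 and 81.0 CPM in control and 90.3 and 78.3 CPM with fucoidan. All libraries with particulate were far below the lowest without (log2 fold change -4.19 ± 0.23, adjusted p = 2.32e-06). Of the receptors, FZD8 had 51.7 and 37.6 CPM with particulate alone and 15.7 and 18.5 CPM in the combination, against 4.11 and 4.28 CPM in control and 2.65 and 3.23 CPM with fucoidan (log2 fold change 2.998 ± 0.21, adjusted p = 6.59e-06), FZD4 fell by 1.16 ± 0.13 on the log2 scale and FZD2 by 2.17 ± 0.29. For Notch 5 of 18 tested members rose and 2 fell (median log2 fold change 0.20); 3 rose without either fucoidan replicate and 4 fell without combination replicate 2. HES1, its classic target, fell by 1.93 ± 0.22 on the log2 scale. For Hedgehog 0 of 10 tested members rose and 1 fell (median log2 fold change -0.32), or 4 fell without combination replicate 1.

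Among axon guidance genes 8 of 33 tested members rose and 10 fell (median log2 fold change -0.13); 4 or 5 rose without either control or fucoidan replicate or without particulate replicate 2. NRP1, a receptor of semaphorins and VEGF, had 130.4 and 159.6 CPM with particulate alone and 78.9 and 93.9 CPM in the combination, against 25.8 and 30.1 CPM in control and 23.6 and 28.1 CPM with fucoidan, higher with particulate alone than in the combination (log2 fold change 2.06 ± 0.16, adjusted p = 1.29e-05). SLIT3, a secreted guidance cue, fell by 1.36 ± 0.13 on the log2 scale. In the endothelin, angiopoietin and VEGF list 5 of 14 tested members rose and 6 fell (median log2 fold change 0.06). VEGFA, the main angiogenic factor of the pigment epithelium, had 211 and 535 CPM with particulate alone and 1088 and 219 CPM in the combination, against 217 and 175 CPM in control and 337 and 294 CPM with fucoidan and did not pass (log2 fold change 0.99 ± 0.42, adjusted p = 0.0852). It was 0.39 without combination replicate 1 (adjusted p = 0.364), and it passed without combination replicate 2 (1.29, adjusted p = 0.00613) and without particulate replicate 1 (1.22, adjusted p = 0.0482).

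Insulin and FOXO genes fell without exception among those that passed: 0 of 22 tested members rose and 12 fell (median log2 fold change -0.74). IGFBP5, which binds insulin-like growth factors, had 41.4 and 50.3 CPM with particulate alone and 71.6 and 57.1 CPM in the combination, against 477 and 394 CPM in control and 362 and 288 CPM with fucoidan (log2 fold change -2.79 ± 0.21, adjusted p = 8.72e-06). PIK3IP1, an inhibitor of PI3 kinase, had 4.96 and 5.19 CPM with particulate alone and 25.4 and 13.8 CPM in the combination, against 50.2 and 47.3 CPM in control and 99.8 and 90.3 CPM with fucoidan; its values were higher with fucoidan in both settings (log2 fold change -2.74 ± 0.24, adjusted p = 2.53e-05). FOXO4 fell by 1.36 ± 0.12 on the log2 scale and PDK2, which inhibits pyruvate dehydrogenase, by 1.46 ± 0.15. TXNIP, which binds thioredoxin, fell (log2 fold change -1.19 ± 0.29, adjusted p = 0.00880), with 15.0 and 14.3 CPM with particulate alone and 69.3 and 23.2 CPM in the combination, against 44.2 and 41.2 CPM in control and 85.8 and 80.7 CPM with fucoidan; combination replicate 1 overlapped the controls, and with no term for fucoidan its adjusted p was 0.108. In the clock list 3 of 19 tested members rose and 7 fell (median log2 fold change 0.25); 1 rose without control replicate 2, either fucoidan replicate or particulate replicate 2, 5 without particulate replicate 1 and 6 without combination replicate 2. DBP and TEF, output factors of the clock, fell by 2.28 ± 0.20 and 1.13 ± 0.11 on the log2 scale, PER3 by 1.18 ± 0.13, and NPAS2, a paralog of a core clock activator, rose by 1.78 ± 0.17. Among nuclear receptors and their targets 4 of 23 tested members rose and 7 fell (median log2 fold change -0.06); RARB, a retinoic acid receptor, fell by 2.22 ± 0.29 on the log2 scale, NR2F1 by 1.65 ± 0.14, as well as the thyroid hormone receptor gene THRA by 1.18 ± 0.11.

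Lipid lists differed. Those for fatty acid synthesis and for LXR and lipid efflux had shares near or under the background. In the PPAR and fat oxidation list 9 of 21 tested members rose and 3 fell (median log2 fold change 0.24). CPT1A, the entry step of fatty acids into mitochondria, had 99.3 and 99.4 CPM with particulate alone and 85.6 and 84.4 CPM in the combination, against 48.9 and 48.5 CPM in control and 43.4 and 42.2 CPM with fucoidan, tight in all groups (log2 fold change 1.01 ± 0.09, adjusted p = 2.73e-05). PPARD, a fatty acid receptor of which ANGPTL4 is a target, rose by 0.96 ± 0.15 and UCP2, a mitochondrial carrier, fell by 1.62 ± 0.15 on the log2 scale. PLIN2, a coat protein of lipid droplets, had 178 and 330.2 CPM with particulate alone and 479 and 105 CPM in the combination, against 72.3 and 78.1 CPM in control and 76.4 and 78.0 CPM with fucoidan (log2 fold change 1.84 ± 0.38, adjusted p = 0.00384). In the cholesterol list 0 of 23 tested members rose and 10 fell (median log2 fold change -0.36); 16 fell without combination replicate 1, and 3 with no term for fucoidan. HMGCS1, the committed step toward mevalonate, had 73.5 and 84.8 CPM with particulate alone and 373 and 283 CPM in the combination, against 161 and 186 CPM in control and 459.9 and 472 CPM with fucoidan. Its values were higher with fucoidan in both settings, so the libraries with and without particulate overlap, while each comparison was lower with particulate (log2 fold change -0.82 ± 0.15, adjusted p = 0.00222; with no fucoidan term -0.65, adjusted p = 0.365). SREBF2, the master regulator of the pathway, fell by 0.69 ± 0.14 on the log2 scale. Fatty acid synthesis had 3 of 15 members that rose and 1 that fell (3 fell without combination replicate 1), among which ELOVL6, an elongase, rose by 0.53 ± 0.10 and ME1, a source of NADPH, by 0.96 ± 0.12. LXR and lipid efflux had 2 of 11 members that rose and 0 that fell.

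Glycolysis and hypoxia genes did not move as a group, and the combination replicates lay on opposite sides of the libraries without particulate. Of that list 5 of 31 tested members rose and 3 fell (median log2 fold change -0.03), shares near or under the background. In combination replicate 1, 29 of the 31 members were above the mean of the 4 libraries without particulate, with a median of 0.96 on the log2 scale, and in combination replicate 2 only 2 were (median -0.81). In particulate replicates 1 and 2, 9 and 15 were. Without combination replicate 1 the list had 2 that rose and 15 that fell, and without combination replicate 2 it had 10 and 4. The number that rose was 1 or 2 without either control, either fucoidan or particulate replicate 2, and the number that fell was 1 without either control or either particulate replicate. NDRG1, a hypoxia-induced gene, had 222 and 769 CPM with particulate alone and 2579 and 115 CPM in the combination, against 195 and 167 CPM in control and 217 and 220.4 CPM with fucoidan. It is given as a panel gene: its adjusted p was 0.0497 with all libraries, barely under the threshold. With all libraries the adjusted p was 0.0507 with upper quartile scaling, 0.0617 with DESeq2, 0.241 on log2(TPM + 1) and 0.0395 with limma-voom. The log2 fold change of NDRG1 was 2.04 with all libraries and 0.63 without combination replicate 1, where it did not pass. Its call was also lost when some other libraries were left out. HK1, a hexokinase, rose by 1.11 ± 0.22, and PFKL, a phosphofructokinase, fell by 0.60 ± 0.14 on the log2 scale.

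**Figure D4:**
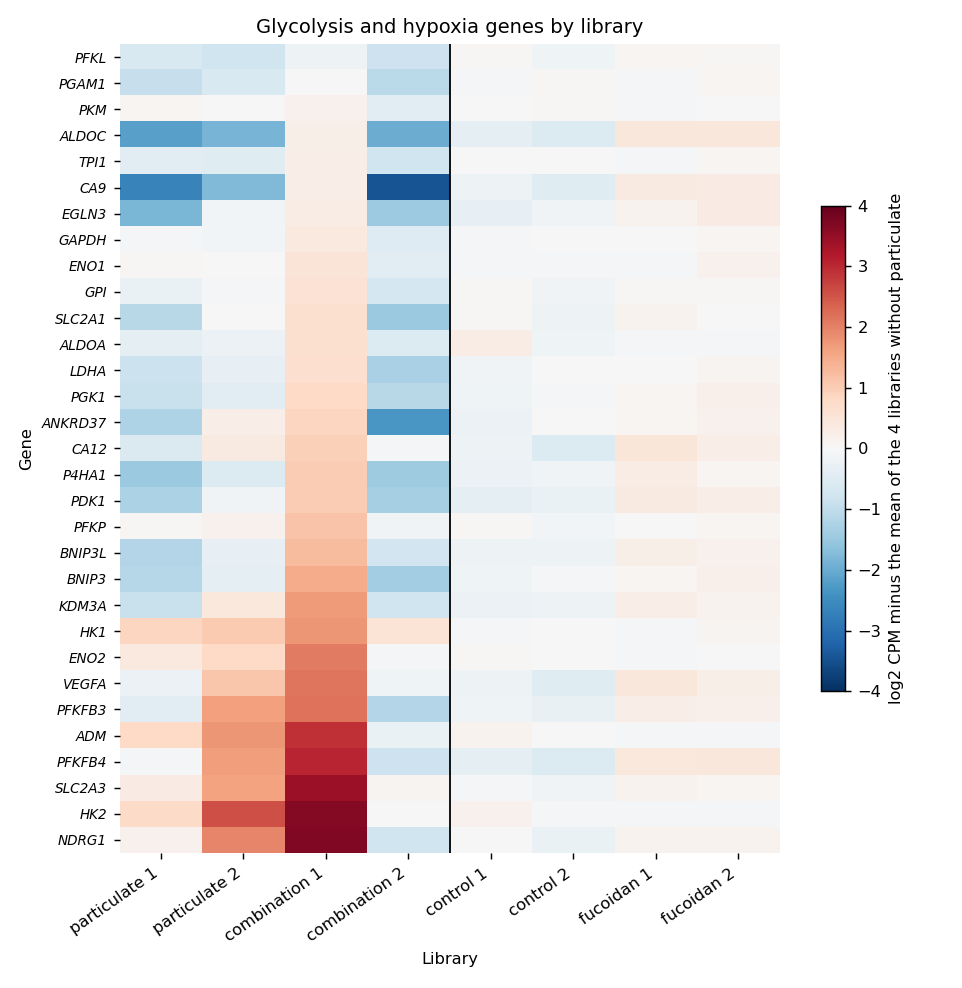
Log2 CPM of each of the 31 tested glycolysis and hypoxia genes (rows) in each library (columns), minus the mean of the 4 libraries without particulate; red is above that mean and blue below, and the black line parts libraries with (left) and without (right) particulate. Combination replicate 1 is above the mean for 29 genes and combination replicate 2 below it for 29.

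Mitochondrially encoded genes and nuclear genes of the respiratory chain differed in their counts. Of the mitochondrially encoded list 10 of 13 tested members rose and 0 fell (median log2 fold change 0.66), or 6 rose without control replicate 1 or without fucoidan replicate 1. MT-ND5, a complex I subunit, had 1886 and 1652 CPM with particulate alone and 1741 and 1961 CPM in the combination, against 856 and 1378 CPM in control and 975 and 927 CPM with fucoidan (log2 fold change 0.81 ± 0.15, adjusted p = 0.00218). MT-CYB had 3023 and 1698 CPM with particulate alone and 1903 and 1888 CPM in the combination, against 886 and 1419.8 CPM in control and 927 and 920.4 CPM with fucoidan (log2 fold change 1.04 ± 0.19, adjusted p = 0.00196). The mitochondrial share of all counts was 3.74% and 2.24% with particulate alone and 2.43% and 2.62% in the combination, against 1.51% and 2.27% in control and 1.45% and 1.503% with fucoidan. Its part in these values was not tested. Of the nuclear respiratory chain list 0 of 29 tested members rose and 0 fell (median log2 fold change -0.05). Of the ribosomal protein list 0 of 34 tested members rose and 3 fell (median log2 fold change -0.22); that last number was 0 in 6 of the 8 fits that left out 1 library, 9 without combination replicate 1 and 10 without particulate replicate 1. It was 12 with upper quartile scaling, 13 on log2(TPM + 1), 25 with limma-voom and 29 without both of those libraries, the last chosen after seeing the data.

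Genes of cell division fell at the mitotic end of the cycle. Of the mitosis list 0 of 29 tested members rose and 14 fell (median log2 fold change -0.41). KIF20A, a kinesin of cytokinesis, had 86.0 and 95.1 CPM with particulate alone and 82.8 and 114 CPM in the combination, against 247 and 253 CPM in control and 241 and 249.6 CPM with fucoidan (log2 fold change -1.39 ± 0.12, adjusted p = 2.27e-05), TOP2A, a topoisomerase of dividing cells, fell by 0.85 ± 0.16 on the log2 scale, as did PLK1, a mitotic kinase, by 0.60 ± 0.10. MKI67, the proliferation marker, fell by 0.73 ± 0.18 (adjusted p = 0.0114). Of the replication list 9 of 36 tested members rose and 1 fell (median log2 fold change 0.19); 18 rose without combination replicate 1, and 5 or 6 without control replicate 1, fucoidan replicate 1, particulate replicate 2 or combination replicate 2. ORC6 and ORC1, subunits of the origin recognition complex, rose by 1.04 ± 0.11 and 0.90 ± 0.15. Of p53 targets 5 of 26 tested members rose and 15 fell (median log2 fold change -0.49). PLK2, a stress-responsive kinase, had 187 and 127 CPM with particulate alone and 134 and 363 CPM in the combination, against 1553 and 1551 CPM in control and 1514 and 1525 CPM with fucoidan (log2 fold change -2.96 ± 0.29, adjusted p = 5.33e-05), BTG2, which slows proliferation, fell by 1.74 ± 0.16 on the log2 scale and DDB2, a repair factor, by 1.403 ± 0.12. PMAIP1, the pro-apoptotic NOXA, rose by 1.98 ± 0.17. CDKN1A, the cell-cycle inhibitor p21, did not pass (log2 fold change -0.28 ± 0.16, adjusted p = 0.202), with 644 CPM in combination replicate 1, and it passed without that library (-0.47, adjusted p = 0.00391). In the list of histone and chromatin writers 3 of 28 tested members rose and 4 fell (median log2 fold change 0.04), near or under the background; the number that fell was 1 or 2 without particulate replicate 2, control replicate 1 or fucoidan replicate 1 and 8 without combination replicate 1, and 5 rose without particulate replicate 1.

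Long intergenic and antisense RNAs had larger shares that fell than coding genes did, a comparison that was not tested. Of 492 tested long intergenic RNAs (GENCODE 29 class), 39 rose (7.93%) and 188 fell (38.2%), and of 630 antisense RNAs 29 rose (4.60%) and 206 fell (32.7%), while of 12513 protein-coding genes 2757 rose (22.0%) and 2201 fell (17.6%). Of 658 processed pseudogenes 36 rose (5.47%) and 64 fell (9.73%). Among genes of at least 5 CPM, 38 of 89 intergenic RNAs fell (42.7%), 30 of 82 antisense RNAs (36.6%) and 1699 of 10456 coding genes (16.2%). The direction was the same in each background, with a median log2 fold change of -0.41 without fucoidan and -0.63 with it for intergenic RNAs. Intergenic RNAs with no annotated gene on the opposite strand gave 25 that rose and 128 that fell of 347. Intergenic RNAs took 0.192% to 0.275% of all counts with particulate and 0.301% to 0.327% without. UCA1, a long noncoding RNA of urothelial tumours, had 24.4 and 28.3 CPM with particulate alone and 42.4 and 18.4 CPM in the combination, against 102 and 99.5 CPM in control and 66.5 and 65.8 CPM with fucoidan (log2 fold change -1.53 ± 0.25, adjusted p = 0.00102), and LINC01111 fell by 4.52 ± 0.27 on the log2 scale. Fewer rose, among them SNHG15, a host gene of a small nucleolar RNA (1.23 ± 0.22). Without control replicate 1 the number of intergenic RNAs that rose was 25, and without control replicate 2 it was 24. The number of antisense RNAs that rose was 17 without control replicate 2 and 18 without fucoidan replicate 1, and that of coding genes was 1765 without fucoidan replicate 1.

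**Figure D5:**
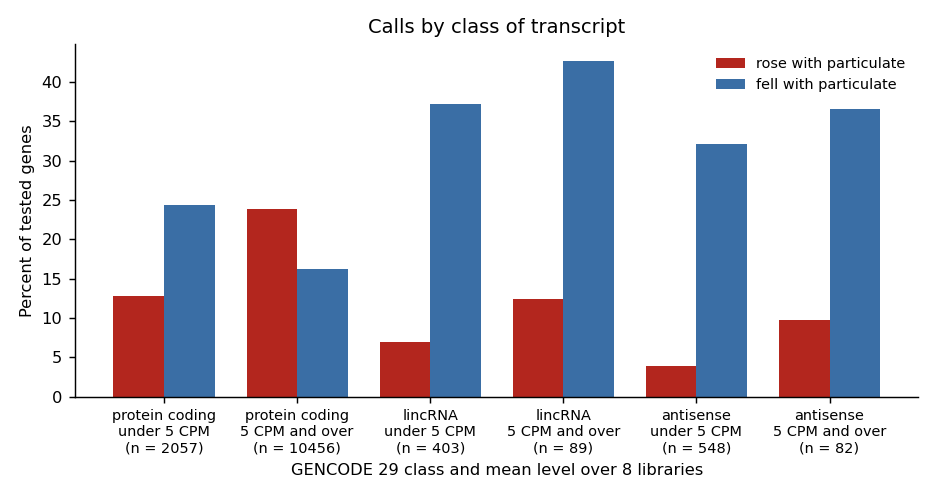
Percent of tested genes that rose (red) or fell (blue) with particulate, by GENCODE 29 class and by mean level over the 8 libraries (under 5 CPM, and 5 CPM and over). For intergenic and antisense RNAs, at both levels, the fallen share, from 32.1% to 42.7%, exceeds the risen share, from 3.83% to 12.4%.

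Whether counting used strand is not stated in what was used here, so values of genes that overlap another gene are uncertain where that gene had many reads. Genes described above whose overlapping opposite-strand gene had at least as many reads over all libraries were PTX3, ANGPTL7, CRB2, ETV4, COL4A1, MMP24, FZD4, RDH10, DBP, THRA, RARB, DDIT3, IL6, ACTA2, ALDH1L2, PMEL, KRT18, BEST1 and ELF3-AS1. Those with a partner at 10% to 90% of their own reads were ELF3, GFM1, ZFAND2A, GMPR2, EPHX1, MARS1, YARS1, SQSTM1, JUNB, ITGB4, WNT2B, KRT81, KIF20A, PDK2, NR2F1, NFE2L2 and KRT8, and also ASNS, whose partner is on the same strand.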

How the data were processed

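RNA from 8 cultures of ARPE-19 cells was sequenced as stranded, poly(A)-selected libraries of 150-base pairs, per the labels' protocols. Reads were trimmed with fastp 0.20.0, aligned to GRCh38 with HISAT2 2.1.0 and counted with featureCounts of Subread 2.0.1, per the submitters' processing notes. The annotation, the strand setting and the treatment of multiply mapped reads are not stated there. The table the authors deposited holds raw counts and TPM for 60623 genes, of which 33419 had no read. Groups came from the labels. The p-values of the model with a separate mean for each group rest on the spread between replicates described as biological. Those of the additive model rest on that spread together with any interaction of particulate and fucoidan, which its residual includes.

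The counts were fitted with edgeR 4.0.16 (R 4.3.3) by quasi-likelihood after TMM scaling and edgeR's expression filter, which left 15010 genes. The additive model had 5 residual degrees of freedom. A model with 1 mean per group, with 4, gave each background and the interaction. Standard errors were derived from each log2 fold change and its F statistic. Alternatives used DESeq2 1.42.0, limma 3.58.1 on counts or on log2(TPM + 1), other scalings, filters and terms, and left out each library in turn. In counts simulated for the additive model over 15010 genes, 100 genes changed 2-fold and 100 changed 4-fold, all of them genes with many reads. Every gene had the same dispersion, and no library stood apart. In that setting 97% of 2-fold and 100% of 4-fold changes were found, with 6 false among 203 calls. The data have unequal spread, genes of few reads and far more genes called, so these rates do not carry over to them. Promoters, 300 bases long, were RefSeq's on GRCh38.p14; gene classes and positions were GENCODE 29's.

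The gene lists, members and named genes were chosen with earlier results of these data known. Most named genes came from a rule: a mean of at least 5 CPM, an adjusted p under 0.05 and no overlap of the 4 libraries with particulate and the 4 without, taking the 12 largest changes and the 8 largest TPM differences in each direction and up to 4 members with the smallest p per list, plus a fixed panel and the 6 genes in each direction with the smallest p among those that passed only in the additive model. Genes outside that rule, including GPX4, QARS1, MYLK, TPM4, UCA1, LINC01111 and SNHG15, were chosen after their values were seen. A few results are not reported here.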

Additional observations from a re-analysis of the deposited data

Results flagged for a closer look

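For each of the 201 genes named or plotted here, the 4 libraries with particulate and the 4 without were checked for 1 library far from the other 3 (a gap above Dixon's 95% critical value). Of 402 such groups 19 held one, where chance gives about 1 in 20, and the 4 libraries of each group come from 2 treatments.

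Combination replicate 1 stood apart upwards for 8 genes. It had 7.13 CPM of ASNS, 1267 CPM of ATF4, 279 CPM of TRIB3, 22.9 CPM of ERN1, 42.7 CPM of IL11, 145 CPM of PPARD, 69.3 CPM of TXNIP and 39.1 CPM of DHRS3. Combination replicate 2 stood apart upwards for THBS1, with 1081 CPM, and downwards for NPAS2, with 6.63 CPM. Particulate replicate 1 stood apart upwards for MT-CYB, with 3023.5 CPM, and KEAP1, with 131 CPM, and downwards for CARMIL1, with 8.88 CPM. Among the libraries without particulate, control replicate 2 stood apart for MT-CYB with 1419.8 CPM, for PFKL with 197 CPM and for RHBDF2 with 13.04 CPM. Fucoidan replicate 1 stood apart for CARMIL1 with 19.97 CPM, and fucoidan replicate 2 for CNN2 with 325 CPM and TGFB2 with 419 CPM. The part of cell state or library quality in these values was not tested.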

How the results depend on the processing

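The particulate effect was called for 5734 genes, and for 5129 to 7983 under other scalings, filters, terms and tools and 4036 to 6723 when 1 library was left out. Against a 1.5-fold change it was called for 1647. Without particulate replicate 1 and combination replicate 1 together, an alternative chosen after seeing the data, the number was 7943. Leaving out 1 library gave 906 to 5003 genes for particulate against control, 743 to 5339 for the combination against fucoidan and 0 to 865 for the interaction; the interaction was also called for 156 genes with no expression filter and 17 by DESeq2. The smallest adjusted p of edgeR's interaction test was 1.45e-36 with no filter and 0.497 with it. Its particulate test gave CCL2 adjusted p-values of 4.73e-12 and 0.0900 at like fold changes, so calls without the filter are less certain. Of the 190 named or plotted genes that passed, 185 passed in the same direction in all 19 alternatives that tested them against no change, and CYP1A1, FHL2, HMGCS1, NDRG1 and TXNIP were lost in at least 1. Most of these genes were chosen from the same data for a small p and no overlap. Their stability was therefore largely set by that choice and does not describe the 5734 genes called. The sign turned for IL6, which had not passed (0.079 with limma-voom and 0.12 without the 2 libraries named); leaving out 1 library gave -0.36 to -0.03. It also turned for CXCL1, which had not passed and was -0.023 to 0.45 when 1 library was left out and 0.50 without those 2.

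With the replicate block the particulate effect was called for 5368 genes, particulate against control for 2534, the combination against fucoidan for 2553 and the interaction for 0. Deviations of same-numbered libraries correlated between -0.25 and 0.08 across genes, which gives no sign of an effect shared by the same number. Whether the cultures were paired by design cannot be read from these values. With 2 libraries per group, genes of few reads and differences between backgrounds are measured least precisely.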
